A study of Homo sapiens with 4 samples.

Results

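The genes described here belong by name to families of enzymes and complex subunits that modify, read or remodel chromatin. They were chosen by name, as the rows of the deposited table whose symbol begins with one of the family names of these proteins (KDM, KMT2, SETD, SUV, EHMT, EZH, PRDM, HDAC, SIRT, KAT, SMARC, ARID, CHD, BAZ, INO80, BRD, PHF, ING, DNMT and TET). The choice gave 133 of the 9885 genes in the table, of which 132 are protein-coding and 1, KDM4A-AS1, is a long noncoding RNA. Because it rests on names alone, a member need not act on chromatin, as with the mitochondrial deacetylase SIRT3. The table gives a whole number of events for each gene in each RNA-seq library, from 0 to 32. Neither the labels nor the study's methods say what kind of event was counted or by which program, so an event number is not an expression level, and a 0 does not say that a gene was not transcribed.

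The libraries came from 4 cell lines, with 1 library each. A8 is HeyA8, an established human ovarian cancer line derived from Hey cells. A8i is HeyA8 with stable silencing of ECM1 by a lentiviral short hairpin RNA and selection in puromycin. Stable expression of a cDNA in A8i cells gave A8i-A (isoform ECM1a) and A8i-B (isoform ECM1b), so both carry the ECM1 hairpin as well. Selection was by flow cytometry or with antibiotics, and the labels do not say which was used for the sequenced cells or whether a line is a single clone. The A8 library is labelled as the parental line rather than as the scrambled hairpin control. Every difference given here is therefore between 2 libraries, has no replicate check and cannot be told apart from a difference in depth, culture or library preparation.

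Chromatin is regulated by proteins with complementary roles. Writers add methyl or acetyl groups to histone tails, erasers remove them, readers bind the marked tails through bromodomains or PHD fingers, and remodellers use ATP to move or evict nucleosomes. DNA methyltransferases and TET enzymes set and remove methylation of cytosine. Many of these genes are known to yield several mRNA isoforms, and subunits of the SWI/SNF remodelling complexes, ARID1A in particular, are recurrently mutated in some ovarian cancers.

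Over all genes the libraries differed in their totals, with 24513 events in A8, 22691 in A8i-A, 24236 in A8i-B and 20535 in A8i. ECM1 itself was listed with 2 events in each library, which gives no check of the silencing. Of 11 epithelial or ovarian cancer markers, 7 were listed, among them KRT8 and PAX8, and EPCAM was listed at 0 in every library. Of 3 mesenchymal markers 2 were listed, and none of the 3 blood and 2 endothelial markers was in the table. Since the table holds event numbers, a missing marker says nothing of its level.

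The chromatin genes held 413 events in A8, 372 in A8i-A, 424 in A8i-B and 341 in A8i, between 1.64% and 1.75% of the events of each library. Of the 133 genes, 96 had at least 1 event in all 4 libraries (72.2%, against 60.6% of all genes), and ARID3A and KDM4A-AS1 had none in any library. The median over the 4 libraries together was 8 events per chromatin gene and 6 per gene over the whole table. Numbers were uneven among members. The 12 genes with the most events held 494 of the 1550 events (31.9%), whereas 37 genes had between 1 and 4 events in all libraries together.

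ING4 had more events than any other chromatin gene and ranked 14 among all genes of the table. It encodes a PHD-finger protein that binds methylated histone H3 and belongs to a histone acetyltransferase complex. The gene (ENSG00000111653) lies on the reverse strand of chromosome 12 from 6759467 to 6772308 in GRCh37, and its 18 annotated transcripts hold 18 distinct introns. ING4 had 17 events in A8, 17 in A8i-A, 18 in A8i-B and 17 in A8i. It was thus event-rich and level across the libraries.

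The annotation of ING4 shows how closely alternative ends can lie in an event-rich gene. One intron has a pair of annotated 5′ ends that lie 9 nt apart and a pair of annotated 3′ ends that lie 3 nt apart. Both windows are read from GRCh37 on the reverse strand and lie at chr12:6762093-6762119 and chr12:6761925-6761952. Capitals mark the first 2 intron bases at each 5′ end and the last 2 intron bases at each 3′ end.
ING4 5′ ends: ccagcaaagGCaaaaagaGTgaggagg
ING4 3′ ends: tctccctcttccctAGaAGgccggactc
The upstream 5′ end, at 6762110, starts with GC and is used by 2 annotated transcripts, and the downstream one, at 6762101, starts with GT and is used by 14. The upstream 3′ end, at 6761937, is used by 9 annotated transcripts and the downstream one, at 6761934, by 7. The event numbers carry no positions, so whether any of the ING4 events lies at these ends was not tested.

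BRD8, a bromodomain subunit of the TIP60 acetyltransferase complex, ranked next with 47 events in the 4 libraries together. It had 9 events in A8, 10 in A8i-A, 19 in A8i-B and 9 in A8i. The number in A8i-B stood apart from the other 3, and the 10 events that separated A8i-B from A8i were the widest gap of any chromatin gene between those 2 libraries.

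PHF21A, a subunit of the LSD1-CoREST demethylase complex, had 14 events in A8, 12 in A8i-A, 9 in A8i-B and 9 in A8i. SETD5, a SET-domain protein, had 12 in A8, 10 in A8i-A, 10 in A8i-B and 12 in A8i. SIRT6, a nuclear NAD-dependent deacylase, had 12 in A8, 12 in A8i-A, 10 in A8i-B and 10 in A8i. These 3 genes shared a total of 44 events but not an order of libraries: SIRT6 and PHF21A were higher in A8 and A8i-A than in the other two libraries, and SETD5 was higher in A8 and A8i.

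The next genes in the order of totals were level or nearly so. HDAC7, a class IIa deacetylase, had 10 events in A8 and 11 in each other library, and HDAC10, a class IIb enzyme, had 9 in A8 and 11 in each other library. SMARCC2, a core SWI/SNF subunit, had 8 in A8i and 9 in each other library. CHD3, an ATPase of the NuRD complex, varied more, with 8 events in A8, 12 in A8i-A, 6 in A8i-B and 8 in A8i.

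BAZ2A, a subunit of a nucleolar remodelling complex, had between 7 and 9 events in each library, and INO80E, a subunit of the INO80 remodeller, also had between 7 and 9. BRD9, a subunit of a SWI/SNF variant complex, had 5 events in A8, 7 in A8i-A, 8 in A8i-B and 9 in A8i, with its lowest number in the parental line.

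The spread across the 4 libraries differed from gene to gene. In 15 chromatin genes the number was the same in all 4 libraries (11.3%, against 15.3% of all genes), and in 56 the highest and lowest libraries lay at most 1 event apart (42.1%, against 54.7% of all genes). The genes with the same number included 10 with exactly 1 event in every library, such as KDM4A and KDM4B, which demethylate lysines of histone H3, KAT8, the acetyltransferase known as MOF, and ING3. Ranges of 4 events or more were found for 17 genes (12.8%, against 13.3% of all genes). The events of a library therefore spread over many genes with small numbers, and the differences described next rest on a few events each.

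A gene was called higher or lower between 2 libraries where (events + 1) differed at least 2-fold and the numbers lay at least 2 events apart. The share of all 9885 genes called by the same rule is given beside each count, as the level that any set of genes would be read against. The comparisons that use A8i share that library, so a number that is unusual in A8i enters each of them.

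The first comparison asks how the numbers differ with ECM1 silencing. The chromatin genes held 341 events in A8i and 413 in A8, a ratio of 82.6% (95% exact Clopper-Pearson interval, 71.3 to 95.5%), close to the 83.8% of all genes. Intervals treat each event as independent, and counting error is all they cover. More events in A8i than in A8 were listed for 23 chromatin genes, fewer for 58 and the same number for 52, which is 17.3% more and 43.6% fewer, against 19.7% and 38.5% of all genes. By the rule for calls, 5 were higher in A8i (3.76%, against 3.46% of all genes) and 17 lower (12.8%, against 10.2% of all genes). The members thus followed the lower total of the A8i library. The median log2 ratio was 0 in the chromatin genes and 0 in all genes.

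DNMT3B, which establishes new DNA methylation, showed the lowest ratio, with 5 events in A8, 5 in A8i-A, 3 in A8i-B and 0 in A8i. KAT6A, a MYST-family acetyltransferase, had 3 in A8, 0 in A8i-A, 3 in A8i-B and 0 in A8i. PHF7, a PHD-finger protein, had 3 in A8, 0 in A8i-A, 1 in A8i-B and 0 in A8i. For DNMT3B A8i alone was at 0, whereas KAT6A and PHF7 were at 0 in A8i-A too.

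SIRT2, a mainly cytoplasmic deacetylase with tubulin among its substrates, had 6 events in A8, 6 in A8i-A, 5 in A8i-B and 1 in A8i. EZH1, a catalytic subunit of the Polycomb complex that methylates histone H3, had 7 in A8, 3 in A8i-A, 4 in A8i-B and 2 in A8i. PHF1, a partner of that complex, had 9 in A8, 6 in A8i-A, 6 in A8i-B and 3 in A8i. In each of these 3 genes A8i was the lowest library.

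KDM6A, which removes the methyl groups that the EZH enzymes place, had 6 events in A8, 4 in A8i-A, 4 in A8i-B and 2 in A8i. CHD9, a CHD remodeller, had 4 in A8, 0 in A8i-A, 3 in A8i-B and 1 in A8i. The other genes called lower in A8i were KMT2A, KMT2C, KMT2E, SETD1A, PRDM15, HDAC5, HDAC9, SMARCE1 and BAZ2B, each of which had at most 2 events in A8i.

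KDM2B, a demethylase that also recruits Polycomb to CpG islands, stood highest in A8i, with 0 events in A8, 0 in A8i-A, 1 in A8i-B and 3 in A8i. INO80, the ATPase of its remodelling complex, had 0 in A8 and 2 in each other library. KDM5B, which demethylates histone H3 at promoters, had 3 events in A8i and 1 in each other library. The remaining genes called higher, ARID4A and PHF8, also had 3 events in A8i against 1 in A8.

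Scaling each library to the mean library total removed 7 of the 17 lower calls and left the 5 higher ones. The 7 were BAZ2B, HDAC5, HDAC9, KMT2C, PRDM15, SETD1A and SMARCE1, all at exactly 2-fold before scaling. Of the scaled calls 66.7% were lower, against 77.3% before scaling and 65.4% of the scaled calls over all genes. After scaling, 3.76% of the chromatin genes were called higher, against 3.79% of all genes, and 7.52% lower, against 7.17%.

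**Figure D1:**
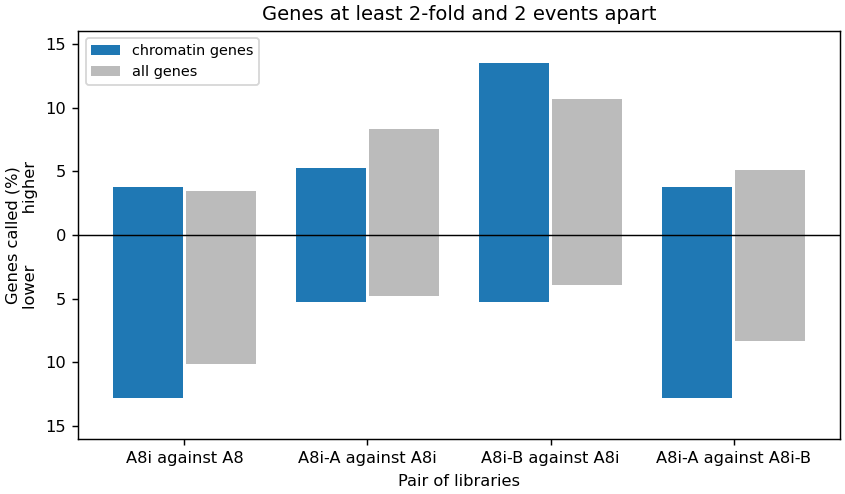
Share of genes called higher (above 0) or lower (below 0) in the first library of each pair (y axis, percent) for the 133 chromatin genes and for all 9885 genes, by pair of libraries (x axis). Before scaling, chromatin genes lay within 5 percentage points of all genes in each pair and direction. For example, 12.8% against 8.31% were called lower in A8i-A against A8i-B. After scaling, that pair and direction gave 11.3% against 5.56%.

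The second comparison asks how the numbers differ when ECM1a is expressed in silenced cells. The chromatin genes held 372 events in A8i-A, which was 109.1% of those in A8i (93.9 to 126.7%), beside 110.5% for all genes. By the rule for calls, 7 genes were higher in A8i-A (5.26%, against 8.35% of all genes) and 7 lower (5.26%, against 4.82% of all genes). Calls over all genes leaned towards A8i-A, and those of the chromatin genes were even in number. With libraries scaled to their totals, 4 chromatin genes were higher (3.01%, against 5.79% of all genes) and 7 lower (5.26%, against 4.83%). Of these calls 63.6% were lower, against 50.0% before scaling and 45.5% of the scaled calls over all genes.

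DNMT3B and SIRT2, whose numbers are given above, had the highest ratios, with log2 values of 2.58 and 1.81 for (events + 1), of which the first depends on the 1 that was added because A8i was at 0. HDAC9, a class IIa deacetylase, had 3 events in A8, 4 in A8i-A, 3 in A8i-B and 1 in A8i. SIRT3, the main mitochondrial deacetylase, had 2 in A8, 4 in A8i-A, 2 in A8i-B and 1 in A8i. The other higher genes were KDM4C, PHF23 and SMARCAL1, each with 3 events in A8i-A and 1 in A8i, and these 3 were no longer called after scaling.

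KAT6B, the paralog of KAT6A, showed the lowest ratio, with 4 events in A8, 0 in A8i-A, 3 in A8i-B and 4 in A8i. SETD1A, a methyltransferase that marks active promoters, had 5 in A8, 0 in A8i-A, 0 in A8i-B and 2 in A8i. PRDM2, a PR-domain methyltransferase, had 1 in A8, 0 in A8i-A, 0 in A8i-B and 2 in A8i. KAT6B was thus at 0 in A8i-A alone, and SETD1A and PRDM2 in both lines with an isoform.

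BRD1, a scaffold of MYST acetyltransferase complexes, had 3 events in A8, 1 in A8i-A, 1 in A8i-B and 3 in A8i. ARID4A, KDM2B and KDM5B completed the lower calls, all with 3 events in A8i.

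The third comparison asks the same of ECM1b. The chromatin genes held 424 events in A8i-B, which was 124.3% of those in A8i (107.6 to 143.8%), beside 118.0% for all genes, a value within that interval. More events in A8i-B were listed for 65 chromatin genes, fewer for 23 and the same number for 45, which is 48.9% more and 17.3% fewer, against 37.97% and 20.2% of all genes. By the rule for calls, 18 genes were higher in A8i-B (13.5%, against 10.7% of all genes) and 7 lower (5.26%, against 3.96% of all genes). With libraries scaled to their totals 9 were higher (6.77%, against 7.32% of all genes) and 8 lower (6.02%, against 4.25%). The 7 lower calls made before scaling were all kept, and a further gene joined them. Of the scaled calls 47.1% were lower, against 28.0% before scaling and 36.7% of the scaled calls over all genes.

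BAZ2B, a bromodomain protein of the BAZ family, had 3 events in A8, 0 in A8i-A, 6 in A8i-B and 1 in A8i. DNMT1, which copies DNA methylation after replication, had 5 in A8, 3 in A8i-A, 8 in A8i-B and 3 in A8i. HDAC5, a class IIa deacetylase, had 5 in A8, 2 in A8i-A, 6 in A8i-B and 2 in A8i. For all 3 genes A8i-B was the highest library and A8i-A was no higher than A8i.

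SMARCAD1, a remodelling ATPase linked to heterochromatin, had 4 events in A8i-B and 1 in each other library. TET2, which oxidises methylated cytosine, had 2 in A8i-B and 0 in each other library. PRDM15, a zinc-finger member of the PRDM family, had 3 in A8, 1 in A8i-A, 4 in A8i-B and 1 in A8i. In all 3 genes A8i-B again held the highest number, although by a single event for PRDM15.

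KAT6A, DNMT3B and SIRT2 were also called higher, with 3, 3 and 5 events in A8i-B. Further higher genes were BRD7, BRD8, CHD1L, CHD9, HDAC1, HDAC9, KMT2C and PHF3, and these 8 were no longer called after scaling, like DNMT1.

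SMARCB1, a core SWI/SNF subunit, was among the lower genes, with 5 events in A8, 5 in A8i-A, 2 in A8i-B and 5 in A8i. SETD9 had 2 in A8, 2 in A8i-A, 1 in A8i-B and 3 in A8i. For both A8i-B was the lowest library. BRD1, KDM2B, KDM5B, PRDM2 and SETD1A completed the lower calls.

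The fourth comparison sets the 2 isoforms against each other. The chromatin genes held 87.7% as many events in A8i-A as in A8i-B (76.1 to 101.1%), beside 93.6% for all genes. By the rule for calls, 5 genes were higher in A8i-A (3.76%, against 5.13% of all genes) and 17 lower (12.8%, against 8.31% of all genes). Scaling changed these to 5 higher and 15 lower, so 75.0% of the scaled calls were lower, against 52.0% of the scaled calls over all genes. KMT2C and PHF3 were the 2 genes lost. After scaling, 11.3% of the chromatin genes were called lower, against 5.56% of all genes, and 3.76% higher, against 5.14%.

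BAZ2B showed the lowest ratio of this pair, with 0 events in A8i-A and 6 in A8i-B. KAT6A, KAT6B, CHD1L and CHD9 each had 3 events in A8i-B but 0 in A8i-A, and BRD3, SIRT1 and TET2 had 2 against 0. CHD1L is a remodeller activated at sites of DNA damage, and it had 1 event in A8, 0 in A8i-A, 3 in A8i-B and 1 in A8i. In 9 of the 17 genes called lower, A8i-A was at 0. A lower call itself selects for low numbers in A8i-A, and the matching share of all genes was not counted.

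ARID4A, a partner of the retinoblastoma protein, had 1 event in A8, 1 in A8i-A, 4 in A8i-B and 3 in A8i. SIRT1, a nuclear deacetylase, had 1 in A8, 0 in A8i-A, 2 in A8i-B and 1 in A8i. In both genes the low value lay in A8i-A, which ARID4A shared with A8.

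The 5 genes called higher in A8i-A were SMARCB1, INO80B, KDM4C, KMT2B and PHF23. KMT2B, a methyltransferase of promoter histones, had 0 events in A8, 2 in A8i-A, 0 in A8i-B and 1 in A8i. INO80B, an INO80 subunit, had 2 in A8, 3 in A8i-A, 1 in A8i-B and 2 in A8i. PHF23 had 2 in A8, 3 in A8i-A, 1 in A8i-B and 1 in A8i.

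The order of the 4 libraries within each gene gave a related view. A8i-B held the single highest number in 29 chromatin genes (21.8%, against 16.2% of all genes), A8 in 19 (14.3%, against 16.6%), A8i-A in 15 (11.3%, against 12.6%) and A8i in 11 (8.27%, against 8.87%). A8i held the single lowest number in 21 genes (15.8%, against 14.6% of all genes), A8i-A in 14 (10.5%, against 9.07%), A8 in 11 (8.27%, against 6.02%) and A8i-B in 5 (3.76%, against 6.17%). Genes with A8i alone at the bottom included EZH1 and EZH2, KDM5C and KDM6A, SIRT2, SIRT3 and SIRT7, and PHF1. When libraries were scaled to their totals, A8 held the lowest value in 44 genes and A8i the highest in 42, because equal whole numbers then separate by library size. The matching scaled shares of all genes were not counted.

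The number of chromatin genes with at least 1 event was 117 in A8, 108 in A8i-A, 120 in A8i-B and 112 in A8i. A8i-A was the lowest here, with 81.2% of the chromatin genes against 78.9% of all genes, although A8i was lowest over the whole table, with 84.2% of the chromatin genes against 73.7% of all genes. In 9 chromatin genes 1 or more libraries were at 0 while another held 3 events or more, namely BAZ2B, CHD1L, CHD9, DNMT3B, KAT6A, KAT6B, KDM2B, PHF7 and SETD1A. A8i-A was at 0 in 8 of them, all but DNMT3B. These genes were picked for a 0 in some library, and the matching shares of all genes were not counted.

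By class, the deacetylases and the methyltransferases held the most events. Classes were set by family name, so the role of a single gene can differ from that of its class. Totals by class are descriptions of few genes each. The 17 deacetylases held 71 events in A8, 74 in A8i-A, 75 in A8i-B and 56 in A8i. In none of the 17 was the number in A8i-B below that in A8i, with 10 higher and 7 equal (58.8% and 41.2%). Over all genes 37.97% were higher in A8i-B, 20.2% lower and 41.9% equal, and the A8i-B library had the larger total. SIRT7, a nucleolar sirtuin, had 8 in A8, 8 in A8i-A, 7 in A8i-B and 5 in A8i. HDAC3, a class I deacetylase, had 2 events in A8i-A and 4 in each other library. HDAC6, which deacetylates tubulin, had 2 in A8, 4 in A8i-A, 4 in A8i-B and 3 in A8i.

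The 25 methyltransferases and PRDM genes held 79 events in A8, 57 in A8i-A, 68 in A8i-B and 61 in A8i. Fewer events in A8i than in A8 were listed for 16 of them (64%, against 38.5% of all genes) and more for 7 (28%, against 19.7%). The A8i library had the lowest total over all genes. Among the methyltransferases of active genes, KMT2A had 2 events in A8, 0 in A8i-A, 1 in A8i-B and 0 in A8i, and KMT2C had 3 in A8, 1 in A8i-A, 3 in A8i-B and 1 in A8i. KMT2D had 4 in A8i and 2 in each other library, the opposite order of A8 and A8i. SETD2, which methylates histone H3 along transcribed genes, had 4 in A8, 2 in A8i-A, 1 in A8i-B and 2 in A8i.

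Among enzymes that mark silent chromatin, SETDB1 had 6 events in A8, 4 in A8i-A, 5 in A8i-B and 4 in A8i. EHMT1 had 4 in A8, 3 in A8i-A, 6 in A8i-B and 6 in A8i. SUV39H2 had 2 in A8, 3 in A8i-A, 3 in A8i-B and 2 in A8i. None of these 3 was called in any pair.

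The 16 KDM genes held 26 events in A8, 26 in A8i-A, 26 in A8i-B and 22 in A8i. KDM5C, which demethylates histone H3 at promoters and enhancers, contributed most, with 6 in A8, 5 in A8i-A, 6 in A8i-B and 4 in A8i. KDM2A, a demethylase bound to CpG islands, had 2 in A8i and 4 in each other library. KDM1A, the amine oxidase LSD1, had 1 in A8, 1 in A8i-A, 2 in A8i-B and 1 in A8i. The 7 KAT genes held 16, 12, 9 and 14 events in A8, A8i, A8i-A and A8i-B. KAT6A and KAT6B were at 0 in A8i-A, the library with the lowest total of the class, while KAT2A, the GCN5 enzyme, had 4 events in A8i-A and 2 in each other library.

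Among remodellers, the 20 SMARC and ARID genes held 55 events in A8, 56 in A8i-A, 62 in A8i-B and 50 in A8i. More events in A8i-B than in A8i were listed for 11 of them (55%, against 37.97% of all genes). Fewer were listed for 2 (10%, against 20.2%), SMARCB1 and ARID2. SMARCE1, a SWI/SNF subunit, had 5 in A8, 2 in A8i-A, 3 in A8i-B and 2 in A8i. ARID2, a subunit of the PBAF complex, had 2 in A8, 0 in A8i-A, 0 in A8i-B and 1 in A8i. The 9 CHD genes were close to level at 32, 28, 29 and 30 events in A8, A8i, A8i-A and A8i-B. CHD8, which represses Wnt target genes, had 8 in A8, 4 in A8i-A, 4 in A8i-B and 8 in A8i. The 8 BAZ and INO80 genes held 24 events in A8, 22 in A8i-A, 28 in A8i-B and 24 in A8i.

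Among readers, the 7 BRD genes held 27 events in A8, 27 in A8i-A, 42 in A8i-B and 29 in A8i. Without BRD8 they held 18 events in A8, 17 in A8i-A, 23 in A8i-B and 20 in A8i, so 10 of the 13 events that separated A8i-B from A8i belonged to that gene. Over all chromatin genes, A8i-B without BRD8 held 122.0% of the events of A8i (105.2 to 141.5%). The 20 PHF and ING genes held 71 events in A8, 62 in A8i-A, 65 in A8i-B and 55 in A8i. Without ING4 their totals were 54 in A8, 45 in A8i-A, 47 in A8i-B and 38 in A8i.

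The 4 genes of DNA methylation and hydroxymethylation held 12 events in A8, 10 in A8i-A, 14 in A8i-B and 4 in A8i. DNMT3B and DNMT1 contributed most of these. DNMT3A, the other enzyme of new methylation, had 2 in A8, 2 in A8i-A, 1 in A8i-B and 1 in A8i. The class is small, and the gap between A8i and the other libraries rests on 8 events against A8.

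**Figure D2:**
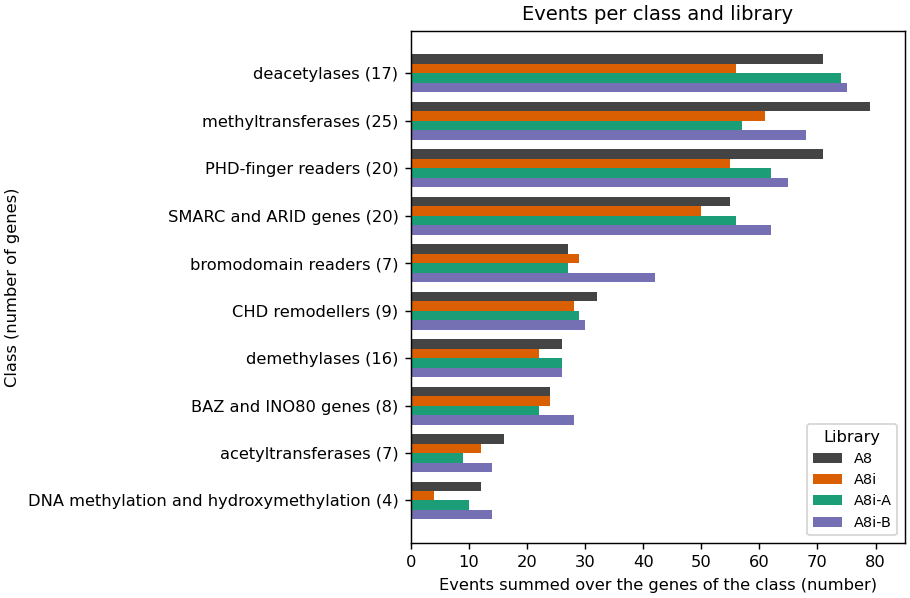
Events summed over the genes of each class (x axis, number) in each of the 4 libraries, with the number of genes of the class in brackets (y axis) and no error bars because each line has 1 library. The deacetylases are lowest in A8i at 56, the methyltransferases lowest in A8i-A at 57 and the bromodomain readers highest in A8i-B at 42.

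Some pairs of paralogs differed in their event numbers. HDAC1 had 2 events in A8, 2 in A8i-A, 3 in A8i-B and 1 in A8i, whereas HDAC2 had 1 in A8 and 0 in each other library. CHD4, the main NuRD ATPase, had 4 in A8i-A and 3 in each other library, a total of 13 against 34 for CHD3. ARID1B had 24 events over the 4 libraries against 9 for ARID1A, and BAZ2A had 32 against 10 for BAZ2B.

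Other pairs were closer. SMARCA4 and SMARCA2, the alternative ATPases of SWI/SNF, had 19 and 17 events, and SMARCA2 had 2 in A8, 5 in A8i-A, 6 in A8i-B and 4 in A8i. EZH2, the more abundant catalytic Polycomb subunit of dividing cells, had 5 in A8, 7 in A8i-A, 7 in A8i-B and 4 in A8i, a total of 23 against 16 for EZH1. EHMT1 and EHMT2 had 19 and 17, and KDM5A and KDM5B 6 each. Whether reads were assigned uniquely between paralogs is not given in the sources used here.

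The chromatin genes are longer and more complex than the table as a whole. Their median was 15 annotated transcripts, 30 distinct introns and a longest transcript of 5786 nt, against 9 transcripts, 17 introns and 3852 nt over the genes of the table matched to the annotation. Per distinct intron their median was 0.275 events over the 4 libraries, against 0.391 for all genes, and per exon of the transcript with the most exons it was 0.444 against 0.611. The chromatin genes thus had more events per gene, more introns and fewer events per intron. Whether the number of introns accounts for the larger totals was not tested.

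Among the 133 chromatin genes, totals followed the number of annotated transcripts more than the length. Spearman's rho with the total was 0.52 for annotated transcripts, 0.36 for distinct introns and -0.07 for the longest transcript, and over all matched genes it was 0.47, 0.35 and 0.02. These values are across genes that share the same libraries and are given as descriptions. ING4, with 69 events and 18 transcripts, had many events for its transcripts, whereas SMARCA2 had 17 events and 72 transcripts and HDAC6 13 events and 84 transcripts.

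**Figure D3:**
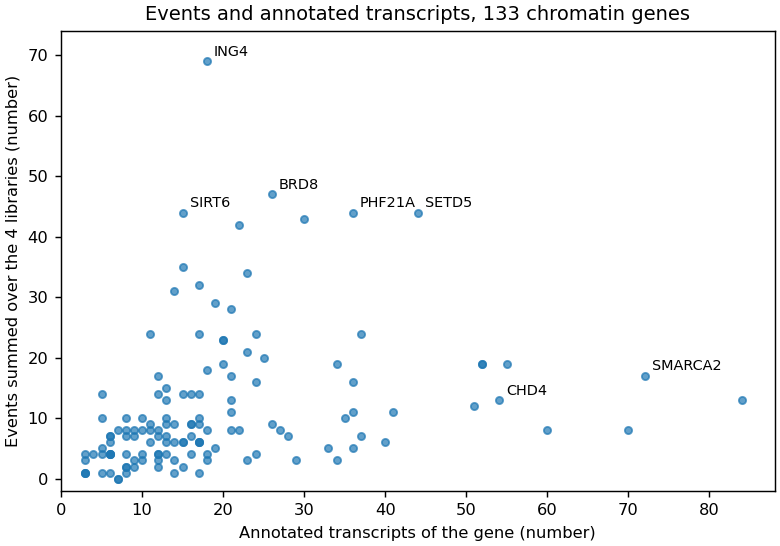
Events summed over the 4 libraries (y axis, number) against the number of annotated transcripts (x axis) for the 133 chromatin genes, 1 point per gene. ING4 lies highest at 69 events with 18 transcripts, and SMARCA2 lies low at 17 events with 72 transcripts.

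The library ratios were also read by transcript length. Among all genes with a longest transcript of at least 5786 nt, A8i held 77.1% of the events of A8, against 85.9% among shorter ones. Among chromatin genes the values were 84.5% (68.4 to 104.2%) for the longer and 80.8% (65.7 to 99.2%) for the shorter, the opposite order, with intervals that overlap. For A8i-A against A8i-B they were 80.8% (65.2 to 100.03%) for the longer chromatin genes and 93.8% (77.4 to 113.6%) for the shorter, beside 87.0% and 95.5% for all genes. For A8i-A against A8i the longer chromatin genes gave 94.7% (75.8 to 118.2%) and the shorter 123.3% (100.3 to 151.6%), beside 107.6% and 111.1% for all genes. For A8i-B against A8i the longer gave 117.2% (94.9 to 144.7%) and the shorter 131.4% (107.3 to 161.2%), beside 123.7% and 116.3% for all genes, again in the opposite order. In each of the 4 pairs the intervals of longer and shorter chromatin genes overlapped. The part of length in the differences between libraries was not tested.

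Other chromatin genes, which the family names leave out, were listed by role. Of 154 symbols, 120 were in the table, and 90 of these had an event in all 4 libraries (75.0%). Together they held 364 events in A8, 307 in A8i-A, 352 in A8i-B and 316 in A8i. A8i thus held 86.8% of the events of A8 (74.4 to 101.2%), beside 83.8% for all genes. In that pair 4 of the 120 genes were called higher (3.33%, against 3.46% of all genes) and 11 lower (9.17%, against 10.2%), both near the level of all genes. For A8i-A against A8i the ratio was 97.2% (82.8 to 114.0%), beside 110.5% for all genes, with 10 higher (8.33%, against 8.35% of all genes) and 13 lower (10.8%, against 4.82%). For A8i-B against A8i it was 111.4% (95.4 to 130.1%), beside 118.0% for all genes, with 17 higher (14.2%, against 10.7% of all genes) and 6 lower (5.0%, against 3.96%). For A8i-A against A8i-B it was 87.2% (74.6 to 101.9%), beside 93.6% for all genes, with 7 higher (5.83%, against 5.13% of all genes) and 12 lower (10.0%, against 8.31%).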

How the data were processed

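RNA-seq libraries of 4 cell lines, 1 each, were analysed. According to the study's methods, the authors extracted RNA with TRIzol, used Trim Galore on paired-end reads, aligned these to hg19 by TopHat and ran Cufflinks (version 2.2.1 in the submitters' processing notes). Those notes name the mouse build GRCm38, whereas the gene identifiers are human. The deposited values are unscaled whole numbers of events per gene. The methods give the sequencing yield only as a range for the RNA-seq, and the number of reads behind each event total and the counting program are not given in the sources used here. The number of unused columns of per-sample values is 0.

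Events were summed and compared between libraries as they stand, and no test of conditions was made. Calls needed a fold of 2 on (events + 1) and a difference of 2 events, log2 ratios used a pseudocount of 1, and the 95% intervals came from the exact Clopper-Pearson method, given the sum of both totals, for counting error only. The functions were tested on simulated data, with changes planted only in genes with more events than most chromatin genes have. That run checked the code and gives no error rate for calls at low numbers. Gene structures came from GENCODE release 44 lifted to GRCh37, joined by Ensembl identifier, which matched 9818 of 9885 genes (99.3%) and all 133 chromatin genes. Genes named singly were the 12 with the most events, those with the 5 highest or lowest ratios among the called genes of a pair, those at 0 in a library and with at least 3 events in another, 11 pairs of paralogs and the leading genes of each class. Further genes were named after their values were seen, among them HDAC3, HDAC6, KDM1A, KDM2A, KMT2D, ARID2, CHD8, KAT2A, SETD2, SETDB1, SUV39H2, SIRT1, SIRT7, INO80B and the remaining called genes. Some genes are counted in the totals but are not reported here by name. The members and lists were chosen with earlier results of these data known. Python 3.11.15, numpy 2.4.6, pandas 2.3.3, scipy 1.17.1 and matplotlib 3.10.9 were used.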

Additional observations from a re-analysis of the deposited data

How the results depend on the processing

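No paired analysis was possible because each cell line has 1 library. As a share of each library's total, the ratio of A8i-A to A8i turned direction, at 98.7% in place of 109.1%, and the ratio moved to 98.6% for A8i against A8 and to 105.4% for A8i-B against A8i. No ratio left its interval when only members with an event in all libraries, or members other than the 5 with the most events, were kept. Keeping only protein-coding members could not change a ratio, because the noncoding member, KDM4A-AS1, had no event in any library. In the order higher then lower in the first library, the calls that moved by more than 1.5 times were as follows. With no minimum difference they were 10 higher for A8i against A8, 14 and 15 for A8i-A against A8i, 28 and 11 for A8i-B against A8i, and 8 higher for A8i-A against A8i-B. At 3-fold they were 2 and 6, 2 and 4, 6 and 2, and 1 and 9 for the 4 pairs. After scaling to the mean library total they were 10 lower for A8i against A8, 4 higher for A8i-A against A8i and 9 higher for A8i-B against A8i. Among members with an event in all libraries they were 3 and 9 for A8i against A8, 3 lower for A8i-A against A8i, 11 and 4 for A8i-B against A8i, and 8 lower for A8i-A against A8i-B. The matching shares of all genes were not counted for no minimum difference, for 3-fold or for these members. Those counts therefore have no level to be read against. A pseudocount of 0.1 could not change a call, because on whole numbers at 2-fold it sets the same limit as a pseudocount of 1. At least 2 events in all 4 libraries were found for 52 members. As shares of the library total, the members lowest in A8, A8i-A and A8i-B numbered 44, 24 and 20, and those highest in A8i and A8i-A 42 and 37. No share of all genes was counted for these. Events per exon came to 0.167 with distinct exons over all transcripts. All differences rest on small whole numbers, so calls at exactly 2-fold depend on the scaling.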

Other observations

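Among chromatin genes outside the named families, the corepressor genes that work with histone deacetylases held the most events, with 85 in A8, 73 in A8i-A, 83 in A8i-B and 72 in A8i. RCOR3, a CoREST family protein, had 8 events in A8, 6 in A8i-A, 8 in A8i-B and 3 in A8i. MBD1, which binds methylated DNA, had 11 in A8, 10 in A8i-A, 16 in A8i-B and 9 in A8i.

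PBRM1, a bromodomain subunit of the PBAF complex, had 12 events in A8, 2 in A8i-A, 7 in A8i-B and 7 in A8i, and SS18, a SWI/SNF subunit, had 11 in A8, 3 in A8i-A, 2 in A8i-B and 8 in A8i. Both stood highest in the parental line. PRMT2, an arginine methyltransferase, had 3 in A8, 2 in A8i-A, 9 in A8i-B and 8 in A8i, so that A8i and A8i-B lay apart from the other two libraries. UHRF2, a protein that binds modified cytosine, had 3 in A8, 3 in A8i-A, 5 in A8i-B and 7 in A8i. MEN1, the menin partner of the KMT2 enzymes, had 7 in A8, 5 in A8i-A, 7 in A8i-B and 3 in A8i. All the genes named here were picked with their values in view, and none of the differences has a replicate check.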
